A study of Mus musculus with 6 samples.

Results

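The lysosomal genes described here encode 17 subunits of the proton pump, 17 hydrolases, 3 helper proteins of hydrolases, 6 membrane proteins and the transcription factor TFEB. The 44 genes were taken from a list of mouse symbols, by the Ensembl IDs that map to them, out of 21965 genes in the count table. All 44 had reads and all passed the filter on low counts. No rule on measured values was used to draw up the list, but earlier results of these data were known when it was chosen.

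Lysosomes are acidic organelles in which proteins, glycans and lipids taken up by endocytosis, phagocytosis or autophagy are broken down. The vacuolar ATPase acidifies them: its cytosolic V1 sector hydrolyses ATP, and its membrane-bound V0 sector carries protons into the lumen. TFEB, a basic helix-loop-helix factor, binds a palindromic E-box in the promoters of many of these genes, and macrophages and osteoclasts are known for high lysosomal activity.

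The libraries held mRNA of endothelial progenitor cell (EPC) cultures grown from the bone marrow of male mice (C57BL/6 in the labels, C57BL/6J in the written protocol), 3 exposed to CAP and 3 to air. CAP, concentrated ambient fine particles, was breathed 6 h per day for 30 days at a mean of 67 µg/m3, and the air group breathed filtered air on the same schedule. All mice were 11 weeks old when bought and had 1 week to settle in. The labels name no mutant allele and no other agent in either group. Each group was housed in 1 cage, and an effect of the cage cannot be told apart from one of the inhaled air. RNA was taken after 12 days of culture by the sample labels and after 10 days by the written protocol.

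The 6 libraries held 28713206 to 30446171 counts each. Markers of endothelial cells were low and those of macrophages abundant: the 13 endothelial markers summed to 3108, 3274 and 3827 normalized counts in CAP replicates 1 to 3, against 3329, 3204 and 5856 in air replicates 1 to 3. The 14 macrophage markers summed to 593253, 480619 and 550367 in CAP and to 656135, 692184 and 679580.5 in air. Normalized counts are counts divided by the library's size factor. The defining markers of endothelium were thus present at low levels only, and the samples are called cultures below. CAP replicate 2 stood apart from the other libraries. It had the lowest value of the 6 for 33.6% of all genes tested and the highest for 29.8%, so values without it are given beside those with it for most genes and lists named below. Where none is given, a dependence on that library is not excluded.

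Together the 44 genes took 3.20%, 2.74% and 3.08% of the normalized counts in CAP replicates 1 to 3, against 3.34%, 3.41% and 3.38% in air replicates 1 to 3. Every CAP library was below every air library in this sum, and CAP replicate 2 was the lowest. By level per length, in TPM, which are counts per kilobase of exon scaled to the same total in each library, the genes ran from 3.40 for Atp6v1c2 to 15646 for Psap, with a median of 244 as means of the 6 libraries. Psap, which encodes prosaposin, the precursor of the saposins that assist sphingolipid breakdown, made up 38.1% to 40.5% of the counts of all 44 genes in each library. In these bulk libraries a lower share of a cell type and less RNA per cell cannot be told apart.

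No lysosomal gene passed edgeR's quasi-likelihood test after adjustment over the 14792 genes tested, and neither did any other gene (0.00% of genes). Adjusted p-values of the 44 genes ran from 0.521 to 0.976. At an unadjusted p under 0.05, 3 genes were lower in CAP (Atp6v1c2, Man2b1 and Lamp2), beside 3.70% of all genes tested, and 0 were higher, beside 5.67%. Limma-voom called 0 of the 44 (0.00% of all genes), and DESeq2 called Atp6v1c2 alone, lower in CAP, beside 0.0135% of all genes lower and 0.149% higher. P-values measure the spread between these mice only.

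Most of the differences pointed the same way and were small. The log2 fold change, CAP over air, was negative for 37 of the 44 genes (84.1%), beside 51.2% of all genes tested, and its median was -0.13 beside -0.01 over all genes. Without CAP replicate 2 the count of negative values was again 37, beside 52.9% of all genes, and the median was -0.07 beside -0.02. Atp6v1c2 alone exceeded 0.5 in size on the log2 scale, and the next in size was Lamp2 at -0.48. In 6 genes every CAP library was below every air library (Atp6v1c2, Psap, Man2b1, Glb1, Hexa and Lamp1), 13.6% of the 44 beside 8.46% of all genes tested. The opposite separation occurred in 0 of the 44, beside 8.44% of all genes. Leaving out a library cannot undo such a separation, so these 6 remained by construction without CAP replicate 2. No other of the 44 genes joined them, and their share of 13.6% then stood beside 11.3% of all genes. The 44 genes were measured in the same 6 libraries and are not independent of each other.

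**Figure D1:**
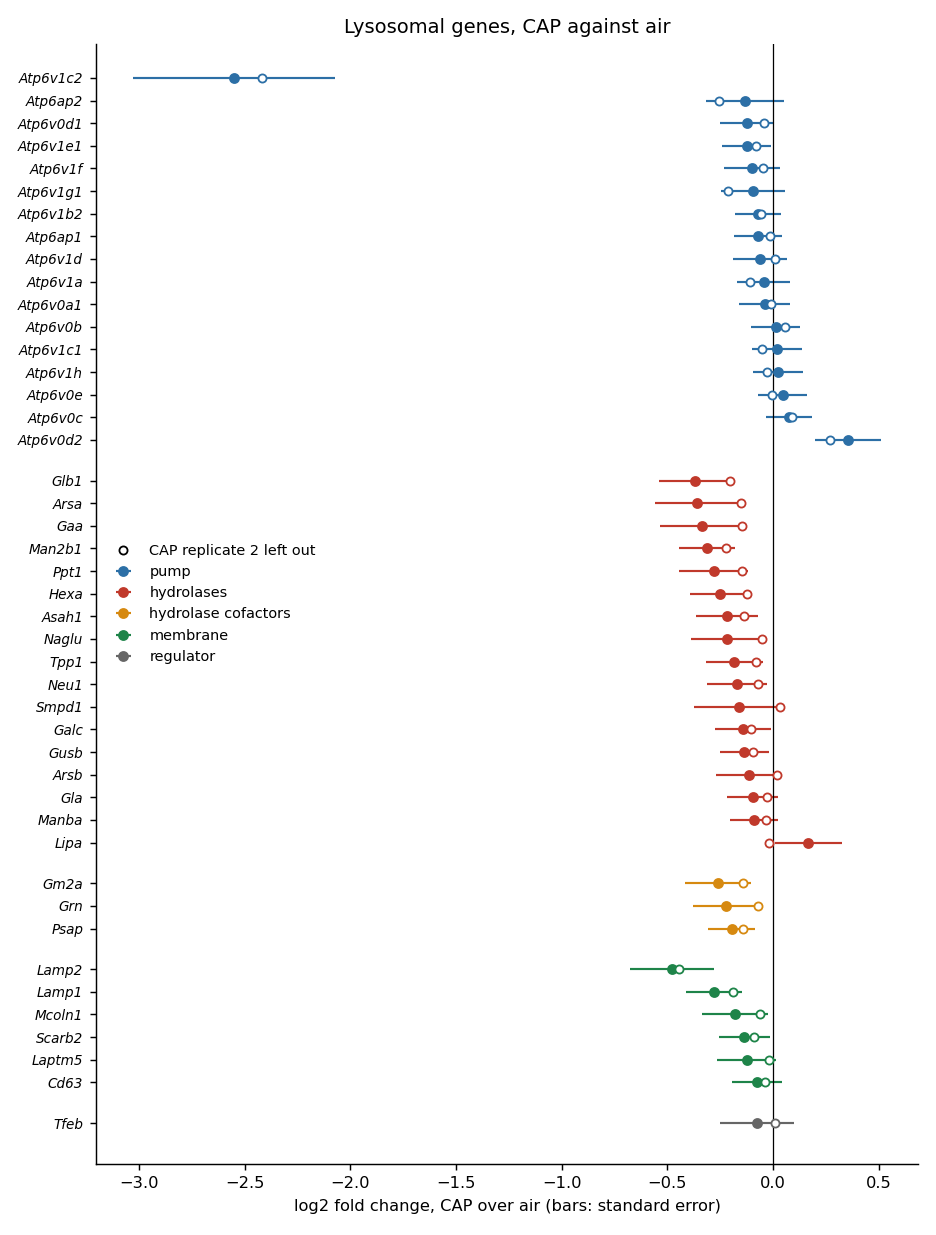
Log2 fold change, CAP over air, of each of the 44 lysosomal genes by class, with bars of 1 standard error; open circles leave out CAP replicate 2. Atp6v1c2 stands apart at -2.55, 15 of the other 16 pump genes lie within 0.13 of zero, and 16 of 17 hydrolases are negative, with most open circles nearer to zero.

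Of the 17 proton pump genes, 11 had negative and 6 positive log2 fold changes, with a median of -0.06, and without CAP replicate 2 the counts were 13 and 4 and the median -0.04. The summed normalized counts of the pump genes were 123497, 123557 and 123099.7 in CAP replicates 1 to 3, against 127548, 130686 and 120901 in air replicates 1 to 3, so that the groups overlapped. The 6 genes of the V0 sector had a median log2 fold change of 0.03, the 9 genes of the V1 sector one of -0.07, and both accessory genes were negative at -0.13 and -0.07. Without CAP replicate 2 the medians of V0 and V1 were 0.03 and -0.06, and the accessory genes Atp6ap2 and Atp6ap1 were at -0.26 and -0.01. Apart from Atp6v1c2 and Atp6v0d2, no pump gene differed by more than 0.13 in size on the log2 scale.

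Atp6v1c2 encodes C2, a tissue-restricted form of the V1 subunit C, which bridges the stalk of the pump to its membrane sector. The gene (ENSMUSG00000020566) lies on the minus strand of chromosome 12, at chr12:17284721-17329359 in GRCm38. It had 20.0, 15.0 and 21.0 normalized counts in CAP replicates 1 to 3, against 99.8, 59.6 and 170.2 in air replicates 1 to 3. All CAP values were below all air values, and air replicate 3 was the highest. The means were 18.7 ± 3.23 in CAP and 109.9 ± 56.0 in air (SD, n = 3 each). On the log2 scale CAP minus air came to -2.55 with a standard error of 0.48, and edgeR's quasi-likelihood test gave an adjusted p of 0.521. DESeq2 gave an adjusted p of 0.00393 for this gene, and under the other tools, filters and normalizations with all 6 libraries the adjusted p ran from 0.00393 to 0.535. Without CAP replicate 1 the DESeq2 call was lost (adjusted p = 0.0560), and by edgeR the log2 fold change was -2.09 without air replicate 3 and -2.42 without CAP replicate 2. The study chose Atp6v1c2 for a list of its own from these same libraries, so that its direction here is no independent evidence.

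Atp6v1c2 was the least abundant of the 44 genes, with 381 reads over all 6 libraries, where the next lowest had 2456. Its level per length was 1.01 ± 0.155 TPM in CAP and 5.80 ± 2.98 TPM in air (SD, n = 3 each). On the other strand its exons overlap those of Pdia6, a protein disulfide isomerase of the endoplasmic reticulum. Pdia6 had 20769, 18834 and 18339 normalized counts in CAP replicates 1 to 3, against 18065, 16283 and 14459 in air replicates 1 to 3, with a log2 fold change of 0.25. Its values thus lay higher in the CAP libraries, while those of Atp6v1c2 lay lower, and whether reads were counted by strand is not given in the sources used here. Air replicate 3, the highest for Atp6v1c2, was also the highest for the summed endothelial markers and for the stromal markers, which summed to 98177, 53621 and 133899 in CAP and to 131401, 142779.8 and 208579 in air. The part of these cells in the Atp6v1c2 values was not tested.

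The promoter of Atp6v1c2 is shown because this gene had the largest difference in size among the 44. It comes from RefSeq (GRCm38.p6, chr12:17324701-17324980, minus strand) and runs from 250 bases before the RefSeq start, with the first 30 transcribed bases in capitals. That start lies inside the span GENCODE gives for the gene, and which start these cultures used was not tested.

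Atp6v1c2: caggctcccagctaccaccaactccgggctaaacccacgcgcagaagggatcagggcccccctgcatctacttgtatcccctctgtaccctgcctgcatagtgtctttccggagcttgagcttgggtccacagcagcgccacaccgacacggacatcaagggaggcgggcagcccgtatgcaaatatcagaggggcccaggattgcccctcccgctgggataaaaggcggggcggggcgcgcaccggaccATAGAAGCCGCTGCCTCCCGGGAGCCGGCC

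Atp6v1c1, the widely expressed form of subunit C, had 6769, 7462 and 6237 normalized counts in CAP replicates 1 to 3, against 6811, 6888 and 6479 in air replicates 1 to 3. The groups overlapped, and the log2 fold change was 0.02 (standard error 0.12), and without CAP replicate 2 it was -0.05. Of the transcripts of both forms, counted per kilobase of exon, C2 made up 0.756%, 0.515% and 0.861% in CAP replicates 1 to 3, against 3.64%, 2.18% and 6.34% in air replicates 1 to 3. The difference in means was -3.34 percentage points, with a two-sided exact permutation p of 0.1, the smallest that 3 against 3 libraries allow. Without CAP replicate 2 the difference was -3.24 percentage points.

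Atp6v0d2 encodes d2, a form of the V0 subunit d that is abundant in osteoclasts and also found in macrophages, and had the highest positive log2 fold change of the 44 genes. Located at chr4:19876841-19922605 (GRCm38, minus strand), it had 7077, 7576 and 5912 normalized counts in CAP replicates 1 to 3, against 5036, 6321 and 4715 in air replicates 1 to 3. CAP replicates 1 and 2 were above all air libraries, but CAP replicate 3 lay within their range. Its log2 fold change of 0.36 (standard error 0.16) had an unadjusted p of 0.0502 and an adjusted one of 0.521 in edgeR's quasi-likelihood test, and was 0.27 without CAP replicate 2. Its partner Atp6v0d1, the widely expressed form, had 9026, 7479 and 9106 normalized counts in CAP and 9805, 8925 and 9203 in air, at -0.13 (standard error 0.13) on the log2 scale and at -0.04 without CAP replicate 2.

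Among transcripts of both d forms per kilobase of exon, d2 made up 34.1%, 40.1% and 30.001% in CAP replicates 1 to 3, against 25.3%, 31.9% and 25.3% in air replicates 1 to 3. The means, 34.7% ± 5.06 in CAP and 27.5% ± 3.79 in air (SD, n = 3 each), differed by 7.24 percentage points, with a two-sided exact permutation p of 0.2. This difference did not pass the test, and without CAP replicate 2 it was 4.57 percentage points. Of the osteoclast markers, Dcstamp, needed for fusion of precursors, was at 0 in every library. The 11 markers summed to 10621, 9478 and 10257 normalized counts in CAP and 9889, 9774 and 10161 in air, mostly from Acp5 and Ctsk. Acp5, the tartrate-resistant acid phosphatase, had 2979.99, 3426 and 2614 in CAP and 2104, 2192 and 2479.97 in air. Every CAP library was thus above every air library for Acp5, beside 8.44% of all genes tested. Acp5 came to 0.41 on the log2 scale (0.30 without CAP replicate 2), with p-values of 0.0167 unadjusted and 0.521 adjusted from edgeR's quasi-likelihood test. At an unadjusted p under 0.05 in that test, 5.67% of all genes were higher in CAP and 3.70% lower. Of the 8 markers that could be tested, 6 were negative on the log2 scale, and 3 of these 6 (Car2, Mmp9 and Oscar) had under 50 normalized counts in every library. For all 8 the median lay at -0.45, or at -0.32 without CAP replicate 2. In 2 of the 8, Itgb3 and Car2, every CAP library was below every air library, beside 8.46% of all genes tested. Itgb3 had 453, 316 and 562.38 normalized counts in CAP and 562.40, 694 and 827 in air. Its log2 fold change was -0.65 (-0.46 without CAP replicate 2), with p-values of 0.0272 unadjusted and 0.521 adjusted from edgeR's quasi-likelihood test. The part of osteoclast-like cells in the d2 share was not tested.

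**Figure D2:**
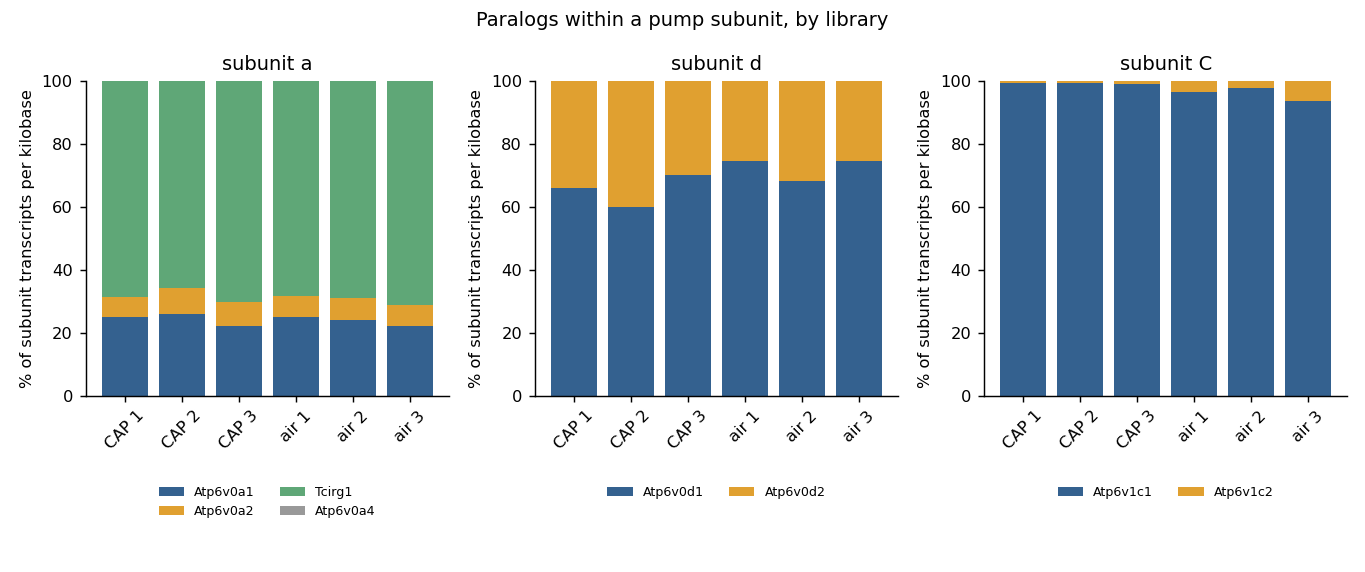
Shares of the transcripts of a pump subunit taken by each of its paralogs, in percent of transcripts per kilobase of exon, for each CAP and air library. The C2 share is below 1% in CAP libraries and 2.18% to 6.34% in air, the d2 shares of the groups overlap, and Tcirg1 takes most of subunit a in all 6 libraries.

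The remaining pump genes differed by less than their standard errors or little more. Atp6v1e1, of the V1 peripheral stalk, had 6977, 6466 and 7406 normalized counts in CAP replicates 1 to 3, against 8015, 7059 and 7662 in air replicates 1 to 3, which gave -0.12 (standard error 0.12) on the log2 scale and -0.08 without CAP replicate 2. Its testis form Atp6v1e2 was at 0 in every library. Atp6v1f, a small V1 subunit of the rotor, had 3257, 3053 and 3665 in CAP and 3997, 3251 and 3437 in air, at -0.10 (standard error 0.13) and without CAP replicate 2 at -0.05. Atp6ap2, the prorenin receptor and an accessory subunit needed for assembly, had 7159.6, 9502 and 8007 in CAP and 7850.2, 11441 and 7764 in air. Its groups overlapped too, at -0.13 (standard error 0.19) on the log2 scale, and the value was -0.26 without CAP replicate 2 and 0.07 without air replicate 2. Of the 16 pump genes other than Atp6v1c2, levels ran from 60.4 TPM for Atp6v1h to 586 TPM for Atp6ap1, a range of 9.70-fold.

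Of the 17 hydrolases, 16 had negative log2 fold changes and 1 a positive one, with a median of -0.18, and without CAP replicate 2 the counts were 15 and 2 and the median -0.10. Of the hydrolases, Man2b1 alone had an unadjusted p under 0.05 in edgeR's test (5.88%), near the 3.70% of all genes tested that were lower in CAP. In 3 of the hydrolases (17.6%) every CAP library was below every air library, beside 8.46% of all genes tested. Their summed normalized counts were 187985, 157381 and 189097 in CAP replicates 1 to 3, against 199517, 203365 and 204872 in air replicates 1 to 3, so that the groups did not overlap in the sum. CAP replicate 2 was the lowest library for 16 of the 17 genes. Whether hydrolases and pump genes differed from each other was not tested.

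Man2b1, the lysosomal alpha-mannosidase that trims N-glycans, had the lowest p of the hydrolases. It had 14814, 11536 and 13844 normalized counts in CAP replicates 1 to 3, against 15915, 16392 and 17600.4 in air replicates 1 to 3, and no CAP value reached the air range. At a log2 fold change of -0.31 (standard error 0.13), edgeR's quasi-likelihood test gave an unadjusted p of 0.0438 and an adjusted one of 0.521. Without CAP replicate 2 the change was -0.22.

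Glb1, which encodes the acid beta-galactosidase of gangliosides and keratan sulfate, had 7014, 4647 and 7029.7 normalized counts in CAP and 7819.6, 7923 and 8417 in air. No library of one group reached the range of the other, and the value of -0.37 (standard error 0.17) on the log2 scale became -0.20 without CAP replicate 2. Tmppe, whose exons overlap those of Glb1 on the same strand, had at most 557 normalized counts in any library. Hexa, the alpha chain of beta-hexosaminidase and by level per length the highest hydrolase of the list at 2061 TPM, had 35372, 26164 and 35817 in CAP and 38410.4, 37739 and 39567 in air. Its groups did not overlap either, at a log2 fold change of -0.25 (standard error 0.15) that was -0.12 without CAP replicate 2.

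In the other hydrolases of low p the groups overlapped. Arsa, the sulfatase that acts on myelin sulfatide, had 2726, 1694 and 2979 normalized counts in CAP replicates 1 to 3, against 3099, 2978 and 3403 in air replicates 1 to 3, which made -0.36 (standard error 0.20) on the log2 scale. Ppt1, which removes fatty acids from S-acylated proteins, had 6281, 5021 and 7569 in CAP and 7095, 7820.3 and 8011 in air, at -0.28 (standard error 0.16). For Gaa, the acid alpha-glucosidase of glycogen, the values were 10179, 6813 and 11565 in CAP and 12226, 10370.5 and 13420.2 in air, at -0.33 (standard error 0.20). In each of these 3 genes CAP replicate 2 was the lowest library, and without it the values were -0.15 for Arsa, -0.15 for Ppt1 and -0.15 for Gaa.

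**Figure D3:**
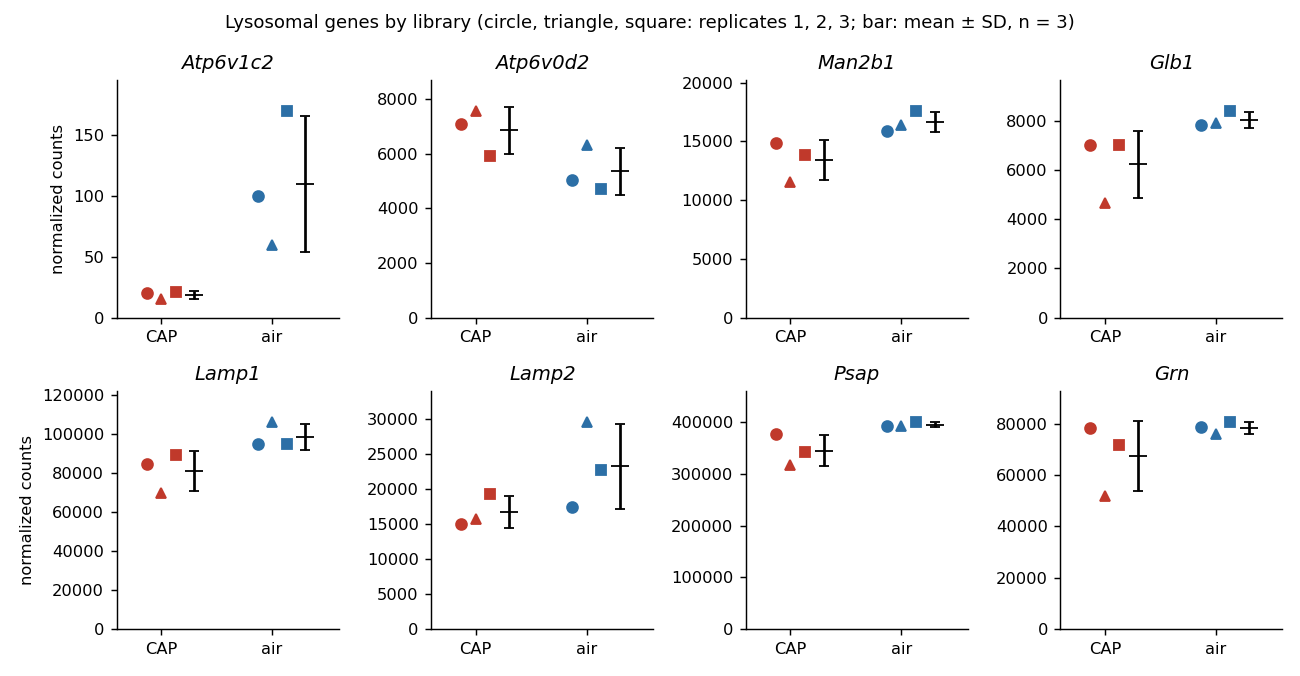
Normalized counts of 8 lysosomal genes in each library, CAP left of air, with symbols for replicates 1 to 3 and bars of mean ± SD (n = 3). The groups do not overlap for Atp6v1c2, Man2b1, Glb1, Lamp1 and Psap and overlap for Atp6v0d2 and Lamp2, and CAP replicate 2 (triangle) is far below the other libraries for Grn.

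The 11 hydrolases not yet described ran from -0.22 to 0.17 in log2 fold change. Asah1, the acid ceramidase, and Naglu, which cleaves heparan sulfate, were the lowest of these at -0.22 each, and without CAP replicate 2 Asah1 was at -0.14 and Naglu at -0.05. Lipa, the lysosomal acid lipase that hydrolyses cholesteryl esters, was the only hydrolase with a positive value and is singled out here after its values were seen. It had 16789, 23118 and 16133 normalized counts in CAP replicates 1 to 3, against 16867, 16995 and 16038 in air replicates 1 to 3. CAP replicate 2 was the highest of the 6 libraries here, unlike for the other 16 hydrolases, and without it the log2 fold change was -0.02 in place of 0.17. The lowest hydrolase by level per length was Galc, the galactosylceramidase, at 38.3 TPM.

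The 3 proteins that serve hydrolases without being enzymes were all negative, with a median of -0.22 and, without CAP replicate 2, of -0.14. Psap (chr10:60277627-60302597, GRCm38, plus strand) had 376655, 317083 and 342107 normalized counts in CAP replicates 1 to 3, against 392793, 392081 and 400493 in air replicates 1 to 3. The air libraries were close together and all above the CAP libraries. Psap thus came to -0.19 (standard error 0.11) on the log2 scale, for which edgeR's quasi-likelihood test gave an adjusted p of 0.547, and without CAP replicate 2 to -0.14. Grn, the progranulin gene, had 78323, 51989 and 71653 in CAP and 78812, 75839 and 80663 in air, at -0.22 (standard error 0.16), and without CAP replicate 2 at -0.07. Gm2a, the activator that presents GM2 ganglioside to hexosaminidase, had 5244, 3848 and 4972 in CAP and 4994, 6293 and 5560.3 in air, at -0.26 (standard error 0.16), and without CAP replicate 2 at -0.14.

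All 6 membrane proteins had negative log2 fold changes, with a median of -0.16 and, without CAP replicate 2, of -0.08. Lamp2, which makes the receptor of chaperone-mediated autophagy and other forms by splicing, had 15000.1, 15667 and 19239.9 normalized counts in CAP replicates 1 to 3, against 17417, 29497 and 22639.8 in air replicates 1 to 3. CAP replicate 3 lay above air replicate 1, so that the groups overlapped, and air replicate 2 was far above the rest. Lamp2 came to -0.48 (standard error 0.20) on the log2 scale, with p-values of 0.0417 unadjusted and 0.521 adjusted from edgeR's quasi-likelihood test. The value was -0.44 without CAP replicate 2 and -0.27 without air replicate 2. These are counts per gene, and the splice forms of Lamp2 were not analysed here.

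Lamp1, the other major glycoprotein of the lysosomal membrane, had 84248, 69500.0 and 89285 normalized counts in CAP and 94597, 105941 and 94668 in air. Again all CAP values were the lower ones, at -0.28 (standard error 0.13) on the log2 scale and at -0.19 when CAP replicate 2 was left out. Mcoln1, the calcium channel TRPML1, had 3033, 2481 and 3548 in CAP and 3837, 3127 and 3296 in air, at -0.18 (standard error 0.16) and without CAP replicate 2 at -0.06. Scarb2, Laptm5 and Cd63 lay between -0.14 and -0.08, and without that library between -0.09 and -0.02.

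**Figure D4:**
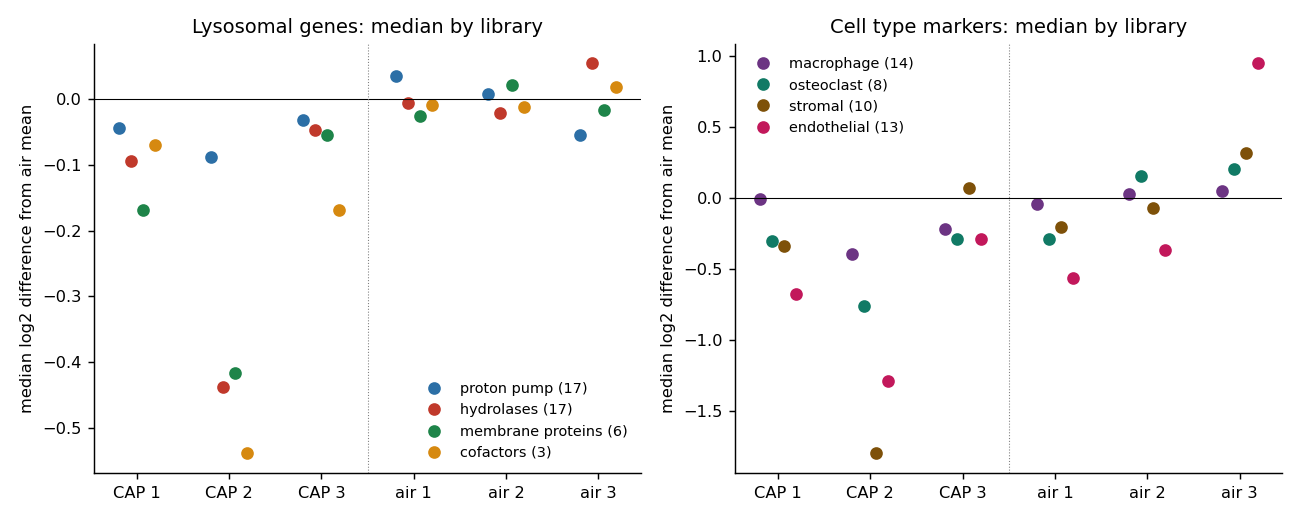
Left, the median over the genes of each lysosomal class of log2(normalized counts + 1) in a library minus the mean of the air libraries; right, the same for markers of macrophages, osteoclasts, stroma and endothelium, with the number of genes in brackets. CAP replicate 2 is lowest for hydrolases, cofactors and membrane proteins at -0.44, -0.54 and -0.42, and is also lowest for all 4 marker lists, while the pump stays at -0.09 there.

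CAP replicate 2 carried much of these differences. It was the lowest of the 6 libraries for 33 of the 44 lysosomal genes (75%), beside 33.6% of all genes. It lay below all air libraries for 35 of them, where CAP replicate 1 did so for 20 and CAP replicate 3 for 16. These last counts were not made over all genes, so they compare the CAP libraries with each other only. The median deviation of the hydrolases from the air mean, on the log2 scale, was -0.09, -0.44 and -0.05 in CAP replicates 1 to 3, against -0.01, -0.02 and 0.05 in air replicates 1 to 3. For the pump the same medians were -0.04, -0.09 and -0.03 in CAP and 0.04, 0.01 and -0.05 in air.

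Cell type markers differed between the libraries as well. Of the 14 macrophage markers, 12 had negative log2 fold changes, with a median of -0.23 and, without CAP replicate 2, of -0.11, and their sum was lowest in CAP replicate 2, with all CAP sums below all air sums. In 4 of the 14 (Lyz2, Itgam, C1qa and Tyrobp) every CAP library was below every air library, beside 8.46% of all genes tested. Fcgr1 had the opposite separation, beside 8.44% of all genes. It had 1815, 1764 and 1643 normalized counts in CAP and 1077, 1037 and 1204 in air. Its log2 fold change was 0.65 (0.64 without CAP replicate 2), and DESeq2 called it higher with an adjusted p of 0.00867, beside 0.149% of all genes. Of the 13 endothelial markers, 11 were negative, with a median of -0.98 and, without CAP replicate 2, of -0.63. Their median deviation from the air mean, on the log2 scale, was -0.68, -1.30 and -0.29 in CAP replicates 1 to 3, against -0.57, -0.37 and 0.94 in air replicates 1 to 3. Air replicate 3 was thus far above the rest, and CAP replicate 3 lay above air replicates 1 and 2. In 2 of these 13, Cdh5 and Pecam1, every CAP library was below every air library, beside 8.46% of all genes tested. Cdh5, the endothelial cadherin, had 189, 58.9 and 179 normalized counts in CAP and 212, 239 and 958 in air, at -1.72 on the log2 scale and at -1.35 without CAP replicate 2. All 10 stromal markers were negative (median -0.38), but without CAP replicate 2 there were 7 negative and 3 positive ones (median -0.14). The 5 smooth muscle markers were all positive, with a median of 0.97 and, without CAP replicate 2, of 0.44, and their sum was highest in that library. Epithelial markers summed to 988, 1485 and 515 normalized counts in CAP and 380.0, 151 and 133 in air, with Krt8 and Cldn7 at 0. Most of this sum came from Krt7 and Krt19, at 1.87 and 3.10 on the log2 scale (1.58 and 2.44 without CAP replicate 2). In both, every CAP library was above every air library, beside 8.44% of all genes tested, and DESeq2 called both higher, beside 0.149%. Epcam, Cdh1 and Krt18 had at most 23.0 normalized counts in any library. Of neutrophil markers Ly6g was at 0, and of lymphocyte markers Ms4a1, Cd3d and Cd3g were at 0, in every library. The part of cell types in the differences of lysosomal genes was not tested.

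The spread of the lysosomal genes between mice was small in air. Their median coefficient of variation was 6.40% over the air libraries, beside 13.99% for all genes tested, and 12.5% over the CAP libraries, beside 19.5% for all genes. The genes tested include those with as few as 10 counts in all, whereas every lysosomal gene but Atp6v1c2 had at least 2456. Genes of like level were not compared. Within the hydrolases it was 16.8% in CAP and 5.22% in air.

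**Figure D5:**
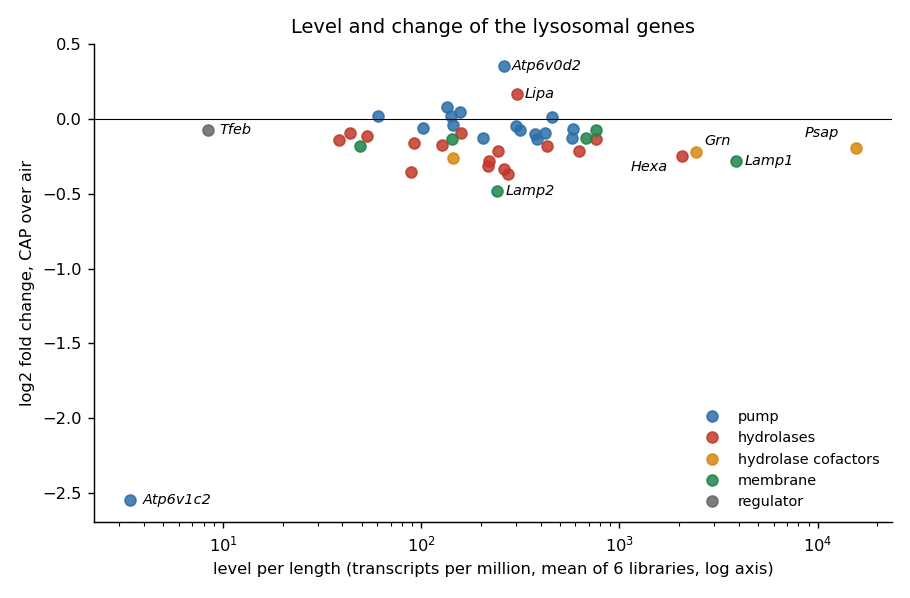
Level per length (TPM, mean of 6 libraries, log axis) against log2 fold change, CAP over air, of the 44 lysosomal genes, coloured by class. Atp6v1c2, at 3.40 TPM, has the lowest level and a log2 fold change of -2.55, while Psap, at 15646 TPM, has the highest level and one of -0.19.

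Tfeb, the gene of the transcription factor, was low, at 8.37 TPM over the 6 libraries. It had 454, 348 and 393 normalized counts in CAP replicates 1 to 3, against 415, 407 and 437 in air replicates 1 to 3, so that the CAP values spanned the air values. The log2 fold change was -0.08 (standard error 0.17) and without CAP replicate 2 it was 0.01. Of 10 related genes, the other MiT factors and the Rag GTPases and folliculin proteins that control them, 4 had positive and 6 negative log2 fold changes, and none passed the test. Those of lowest p were Fnip1, a partner of folliculin, at -0.27 (-0.42 without CAP replicate 2), and Rragb, a Rag GTPase that had under 30 normalized counts in every library, at 1.04 (0.52 without it).

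Promoters were compared with the TFEB motif because TFEB is known to bind it in many lysosomal genes. RefSeq promoters (GRCm38.p6, 250 bases before to 50 after the start) were found for 38 of the 44 genes. The palindrome TCACGTGA, which reads the same on both strands, occurred in 5 of these 38 (13.2%) and in 1.12% of all 27025 genes with a promoter. The shorter core CACGTG, which is contained in it, occurred in 11 of 38 (28.9%) and in 8.09% of all genes. The promoter of Atp6v1c2 held no copy of the palindrome. A match describes these letters only and does not show a binding site. The windows around the palindrome, which is in capitals, show its position in the 5 genes, with up to 26 bases on each side and at most 30 transcribed bases.

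Atp6v0d1: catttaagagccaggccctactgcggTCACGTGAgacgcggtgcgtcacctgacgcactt
Atp6v0e: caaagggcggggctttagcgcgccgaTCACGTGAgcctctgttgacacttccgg
Atp6v1a: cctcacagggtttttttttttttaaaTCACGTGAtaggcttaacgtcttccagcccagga
Gla: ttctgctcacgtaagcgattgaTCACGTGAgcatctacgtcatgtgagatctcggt
Mcoln1: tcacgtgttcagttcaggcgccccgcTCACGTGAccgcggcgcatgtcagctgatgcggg

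The windows lie at chr8:105566035-105566094 (minus strand) for Atp6v0d1, chr17:26676372-26676425 (plus strand) for Atp6v0e, chr16:44139358-44139417 (minus strand) for Atp6v1a, chrX:134601200-134601255 (minus strand) for Gla and chr8:3500447-3500506 (plus strand) for Mcoln1. The motif began 4 bases before the RefSeq start of Atp6v0d1, 46 before that of Mcoln1, 132 before that of Atp6v1a and 228 before that of Gla, whose promoter held 2 copies, and just past the RefSeq start of Atp6v0e. That start of Atp6v0e lies well inside the span GENCODE gives for the gene, chr17:26663231-26699647. Which starts these cultures used was not tested for any of the 5 genes. Log2 fold changes of these 5 genes ran from -0.18 to 0.05 with a median of -0.10, beside -0.14 for the members whose promoter lacked the palindrome. For the shorter core CACGTG the order was the opposite. The 11 genes with it had a median of -0.179, beside -0.135 for the members whose promoter lacked it. For both motifs the ranges with and without the motif overlap, and no test was made.

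Lysosomal genes outside the list gave similar values, but they were measured in the same 6 libraries and are no independent evidence. Of 18 further hydrolases, 17 had negative and 1 a positive log2 fold change (median -0.19 and, without CAP replicate 2, -0.09), beside 51.2% of all genes negative. CAP replicate 2 was the lowest library for 16 of these 18, beside 33.6% of all genes. The list was led by Ids, the iduronate sulfatase of heparan and dermatan sulfate, at -0.46 (standard error 0.21) and Fuca1, the alpha-fucosidase, at -0.27 (standard error 0.14). Without CAP replicate 2, Ids was at -0.48 and Fuca1 at -0.19. Of 18 further membrane proteins that could be tested, 16 were negative and 2 positive (median -0.15 and, without CAP replicate 2, -0.06), and CAP replicate 2 was the lowest library for 12 of them. Slc17a5, the sialic acid exporter sialin, had 1299, 1004 and 1324 normalized counts in CAP and 1387, 1740.2 and 1747 in air, at -0.43 (standard error 0.16), and Laptm4a, a small multi-spanning protein, was at -0.39 (standard error 0.17). Without CAP replicate 2, Slc17a5 was at -0.31 and Laptm4a at -0.26.

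Among 5 further pump genes that could be tested, 3 were positive and 2 negative, with a median of 0.05 and, without CAP replicate 2, of 0.06. Tcirg1, the a3 form of V0 subunit a used in osteoclasts and macrophages, took 68.2% ± 2.37 of the transcripts of subunit a in CAP and 69.5% ± 1.54 in air (SD, n = 3 each), and its log2 fold change was -0.09 (standard error 0.13) and near zero without CAP replicate 2. Atp6v0a2, the a2 form, was at 0.08 (standard error 0.11), and without that library at 0.06. Of 6 genes for delivery of enzymes to the lysosome, 4 were negative and 2 positive, with Nagpa, which uncovers the mannose 6-phosphate tag, at -0.15 (-0.09 without CAP replicate 2) and Sort1, the sorting receptor sortilin, at -0.12 (-0.07 without it). None of the genes in these lists passed edgeR's quasi-likelihood test after adjustment.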

How the data were processed

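Poly-A mRNA of 6 cultures, 1 per mouse, was sequenced as stranded libraries. The authors aligned the reads to mm10 with STAR 2.6 and used HTSeq 0.10.0 to count them by gene. The deposited table holds these raw counts. Which annotation release was used, whether strand was set and how multi-mapped reads were handled is not given in the sources used here. Overlapping and antisense genes are therefore uncertain. Exons of 1 of the 44 genes overlapped another gene on the same strand and those of 11 on the other strand. Symbols, coordinates and exon lengths came from GENCODE vM21 (GRCm38), which held 99.9% of the gene IDs.

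Counts were divided by relative log expression (RLE) size factors, and only genes with at least 10 counts in all were kept. The comparison of CAP with air used the quasi-likelihood test of edgeR 4.0.16 (R 4.3.3), with Benjamini-Hochberg adjustment over 14792 genes and a threshold of 0.05. Standard errors were taken as the size of the log2 fold change over the root of its F statistic. DESeq2 1.42.0, limma-voom (limma 3.58.1), TMM normalization, other count filters, a robust fit, a block by replicate number and omission of each library in turn were alternatives. DESeq2 without single CAP libraries, and the leave-one-out counts of negative and non-overlapping genes, were added after the data were seen. TPM and paralog shares used counts per kilobase of exon. The scripts were tested on simulated data.

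The members and lists were chosen with earlier results of these data known. Values in every library are given for the 6 pump genes, 6 hydrolases and 3 membrane proteins of lowest p, for Atp6v0d1, Atp6v0d2, Atp6v1c1, Atp6v1c2, Lamp1, Lamp2, Psap, Grn, Gm2a and Tfeb, and, of each further list, for up to 2 genes of lowest p as fold changes. Depth was 28713206 to 30446171 counts per library, and the biological coefficient of variation of 26.3% limits the precision more than depth does for all but rare genes.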

Additional observations from a re-analysis of the deposited data

How the results depend on the processing

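With all 6 libraries, 37 genes were negative and none of the 44 changed sign under DESeq2, limma-voom, TMM normalization, both other count filters, the robust fit and the replicate block. The lowest adjusted p of any of the 44 genes in edgeR or limma-voom was 0.149. DESeq2 called 1 gene lower, Atp6v1c2, with all libraries (beside 0.162% of all genes in either direction) and without CAP replicate 2 (0.348%) or 3 (5.46%), and 0 without CAP replicate 1 (0.0479%). Genes lower at an unadjusted p under 0.05 numbered 1 to 7 by edgeR with a library left out (1 without CAP replicate 2, air replicate 2 or air replicate 3, beside 3.87%, 1.76% and 0.867% of all genes, and 7 without CAP replicate 3, beside 8.21%) and 8 by DESeq2 without CAP replicate 3, beside 9.34%. Genes higher at that threshold numbered 1 without a count filter, in the robust fit, by DESeq2 and by limma-voom, beside 5.57%, 5.74%, 6.45% and 4.66% of all genes, and 0 to 1 with a library left out (1 without air replicate 2, beside 2.44%, and 1 without CAP replicate 3, beside 1317 of 14632 genes by edgeR and 9.57% by DESeq2). Genes lower in every CAP than in every air library numbered 6 to 18 with a library left out: 14 without CAP replicate 1, 18 without CAP replicate 3, 11 without air replicate 1 and 13 without air replicate 2, beside 1981 of 14620, 2772 of 14632, 2321 of 14652 and 2045 of 14633 genes in all. With a library left out, the pump median ran from -0.079 to -0.018, its value without air replicate 2. Groups of fewer libraries overlap less by construction, and other causes were not tested.

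Correlations of deviations were -0.021, 0.087 and 0.167 for libraries of the same replicate number, 1 to 3, and ran from -0.197 to 0.114 between unlike numbers. Deviations from a mean of 3 libraries depend on each other, so these values cannot show whether the numbers of the titles pair the libraries. With the replicate block 0 genes were called after adjustment, 6 were lower (beside 6.15% of all genes) and 1 was higher (beside 5.90%) at an unadjusted p under 0.05.

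Signs changed only when a library was left out, for 13 of the 44 genes and in 29 of 704 pairs of gene and setting. Over the settings with a library left out, by edgeR or DESeq2, the log2 fold change ran from -0.020 to 0.066 for Atp6v0b (with -0.0044 by DESeq2 without CAP replicate 1), from -0.0036 to 0.091 for Atp6v0e, from -0.054 to 0.082 for Atp6v1c1, from -0.029 to 0.073 for Atp6v1h, from -0.13 to 0.010 for Atp6v1d, from -0.11 to 0.043 for Atp6v1a, from -0.11 to 0.020 for Atp6v0a1, from -0.21 to 0.015 for Atp6v1g1, from -0.26 to 0.074 for Atp6ap2, from -0.25 to 0.019 for Arsb, from -0.36 to 0.031 for Smpd1, from -0.020 to 0.26 for Lipa and from -0.18 to 0.0088 for Tfeb (0.0089 by DESeq2 without CAP replicate 2).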
